A study of Mus musculus with 9 samples.

Results

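Serpins are a family of protease inhibitors, and some of them stop the enzymes that turn plasminogen into plasmin. Every gene of the count table whose symbol begins with Serpin was taken, together with Plau and Plat, which encode the plasminogen activators urokinase and tissue-type activator, and Plaur, which encodes the urokinase receptor. This gave 66 of the 24062 genes in the table, of which 19 had enough reads to be tested. The genes were read in cultured mouse embryonic fibroblasts of the C57BL/6 strain, a primary connective tissue cell. The control group carried an empty lentiviral vector, the p21 group carried a lentivirus for overexpression of p21, and the p16 group carried a lentivirus for overexpression of p16. Each group held 3 libraries, numbered 1 to 3 in the titles, made from RNA taken at day 10. All 9 libraries, the controls included, are labelled as senescent cells. Both proteins hold cells in cell cycle arrest, and the series title concerns the secretome of p21-expressing cells. The labels name neither the promoter of the vectors nor the embryos or cultures behind each replicate. The p-values therefore cover the spread among these libraries only, which may be technical in part.

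Urokinase and tissue-type plasminogen activator cut plasminogen, which is made mainly in the liver, into plasmin, a protease that dissolves fibrin and helps to degrade the matrix around cells. Urokinase works while bound to its receptor on the cell surface. A serpin offers its reactive loop as bait, and once the protease cuts it the protease is trapped in a covalent complex, which cell-surface receptors then clear. Clade B serpins mostly stay inside the cell, where they inhibit granzymes and lysosomal cathepsins. A few members, such as the collagen chaperone Serpinh1, inhibit nothing.

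Each library held 56.9 M to 76.1 M counts (M, 10 to the power 6). Cdkn1a, which encodes p21, stood at a mean of 366 CPM in control, 1130.2 in p21 and 420 in p16 libraries (CPM, counts per M counts after normalisation), and Cdkn2a, which encodes p16, at 63.1, 95.6 and 1017 CPM. These levels follow the labels, although the counts do not separate vector from endogenous transcripts. The female-specific RNA Xist reached 158 to 397 CPM in replicate 3 of each group and at most 1.34 CPM in any other library. Replicate 3 thus stands apart from replicates 1 and 2. Ddx3y, a gene of the Y chromosome, stood at 50 CPM or more in replicates 1 and 2 of every group. In replicate 3 it stood at 10.8 CPM in p21, at 1.26 CPM in p16 and lower still in control. The replicate 3 libraries were therefore not alike in sex-linked RNA, and the cause was not tested. Among 10 fibroblast markers, Col1a1 stood at 10879 CPM or more and Vim at 5023 CPM or more, while Dcn stayed at or below 5.22 CPM and Lum at or below 1.56 CPM in every library. With p21, Pdgfra of that list fell 2.37-fold and Thy1 rose 1.15-fold, and none was called with p16. With p21, 19.3% of all genes tested were higher and 20.7% lower. Of 17 macrophage and leukocyte markers in the table, 13 could be tested and 9 of them rose in p21 libraries. Their summed level was 13.8 to 16.7 CPM in control, 26.7 to 47.6 CPM in p21 and 11.2 to 15.8 CPM in p16 libraries, with Cd3e at 0 throughout. Of 12 keratinocyte and epithelial markers, 3 of the 7 tested rose with p21 (Dsp, Ivl and Lor), with a summed level of 10 to 18.3, 24.6 to 34 and 15.1 to 19.5 CPM in the same order, Krt1 at 0 and Krt5 and Krt14 at or below 0.044 CPM. Of 7 skeletal muscle markers, 2 of the 3 tested rose with p21 (Acta1 3.09-fold and Des 2.4-fold), with a summed level of 176 to 216, 492 to 596 and 347 to 366 CPM. Of 6 mesothelial markers, Upk1b (3.27-fold) and Upk3b (2.58-fold) rose with p21, and Erg among the endothelial and Map2 among the nerve markers fell 5.51-fold and 1.66-fold. Liver markers summed to no more than 0.787 CPM in any library. The part of these marker genes in the results below was not tested, and in bulk RNA more cells of a type and more RNA per cell cannot be told apart.

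Levels of different genes are compared per kilobase of exon. In control libraries the mean length-scaled level was 1122 CPM per kb for Serpinh1. Serpinf1 stood at 177 CPM per kb, Plau at 103, Plaur at 69.9 and Serpinb6a at 42.1, each without overlap with its neighbour in this order. Plat at 10.7 CPM per kb and Serpine2 at 6.69 overlapped with each other, as did Serpinb9b, Serpina3g and Serpinb2 between 3.44 and 3.47. The lowest was Serpini1, at 0.140 CPM per kb.

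**Figure D1:**
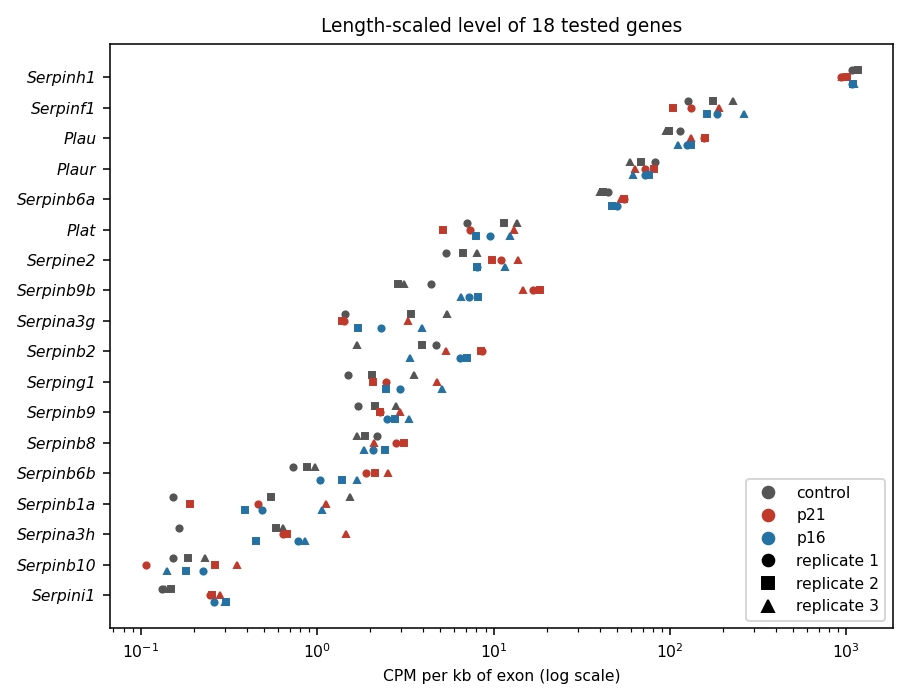
Length-scaled level (CPM per kb of exon, log axis) of 18 tested genes in each of the 9 libraries, coloured by group, with the marker shape giving the replicate number. Serpinh1 lies at 933 CPM per kb or more in every group, and Serpinb9b shows p21 libraries above p16 libraries and these above control.

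Most of the family had few or no reads in these cells. Of the 47 members that could not be tested, 17 had no read in any library, 17 had 1 to 10 reads over all libraries and 13 had more than 10. The largest count of any of them in a library was 18, for Serpinf2, the plasmin inhibitor alpha-2-antiplasmin, equal to 0.248 CPM. The antithrombin gene Serpinc1, the heparin cofactor gene Serpind1 and Serpine3 each stayed at or below 0.158 CPM. Serpina5, the protein C inhibitor, and Serpini2 had no read. The 9 clade B genes known from epidermis and other squamous epithelium (Serpinb3a to Serpinb3d, Serpinb5, Serpinb7, Serpinb11, Serpinb12 and Serpinb13) had 19 reads in all, with at most 5 in a library. Plg, which encodes plasminogen, was at 0 in 8 of the 9 libraries and at 0.0279 CPM in control replicate 3.

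The genes with few or no reads sit largely in tandem arrays. In GENCODE M21 on GRCm38 (mm10), chromosome 12 holds 24 members, all of clade A, between 103614786 and 104414329, and only Serpina3g and Serpina3h among them were tested. Chromosome 13 holds 15 clade B members between 32842092 and 34002794, of which Serpinb1a, Serpinb6a, Serpinb6b, Serpinb9 and Serpinb9b were tested. Neighbouring genes of these arrays share sequence, so reads can be split between copies, and no source used here says how the authors' counting treated reads with several positions. As a measure of this, 79.3% of the 50-base words in Serpina1c transcripts and 78.7% of those of Serpinb9f also occur in another gene, against 5.38% for Serpinb9b, 2.92% for Serpinb6b and none for Plau, Plat, Plaur or Serpinh1.

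Overexpression of p21 raised 8 of the 19 tested members and lowered 1 against the empty vector. Over all 14572 genes tested in the same fit, 19.3% were higher and 20.7% lower (edgeR's quasi-likelihood test, Benjamini-Hochberg adjusted p under 0.05, which is what called, rose and fell mean throughout). The members that rose were Plau among the activators, Serpine2, Serpinb2 and Serpini1 among the inhibitors of plasminogen activators, and Serpinb9b, Serpinb6b, Serpinb6a and Serpinb8 among the other clade B genes. Serpinh1 fell. The median log2 fold change of the 19 was 0.36, beside -0.01 for all genes tested. Each of the 19 stood at 0.235 CPM or more in every library.

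The start sites of 4 of the genes that rose are shown here to set their upstream sequence beside their values. RefSeq (GRCm38.p6) gave 250 bases before the start site for 13 of the 19 tested members, and had no entry in the table used for Plau, Plat, Serping1, Serpinb1a and Serpina3h, among others. Each sequence was searched on both strands for the AP-1 motif TGANTCA, the GC box GGGCGG, the TATA box TATAAA and the E box CACGTG, and matches are in capitals. Serpinb9b is the gene with the largest rise (chr13:33027164-33027413, plus strand), Serpinb2 (chr1:107511173-107511422, plus strand) and Serpinb8 (chr1:107589756-107590005, plus strand) carry an AP-1 match, and Serpine2 (chr1:79858666-79858915, minus strand) carries 6 GC boxes, some of which overlap.
Serpinb9b: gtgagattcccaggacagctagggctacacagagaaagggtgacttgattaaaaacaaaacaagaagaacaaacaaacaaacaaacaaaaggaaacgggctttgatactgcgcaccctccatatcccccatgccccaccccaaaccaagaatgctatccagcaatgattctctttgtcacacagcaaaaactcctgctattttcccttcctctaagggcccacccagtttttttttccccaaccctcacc
Serpinb2: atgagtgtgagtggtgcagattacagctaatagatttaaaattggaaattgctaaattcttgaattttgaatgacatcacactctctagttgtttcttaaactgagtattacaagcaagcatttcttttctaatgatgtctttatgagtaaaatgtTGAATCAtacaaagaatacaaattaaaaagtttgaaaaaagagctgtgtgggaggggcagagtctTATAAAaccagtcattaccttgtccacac
Serpinb8: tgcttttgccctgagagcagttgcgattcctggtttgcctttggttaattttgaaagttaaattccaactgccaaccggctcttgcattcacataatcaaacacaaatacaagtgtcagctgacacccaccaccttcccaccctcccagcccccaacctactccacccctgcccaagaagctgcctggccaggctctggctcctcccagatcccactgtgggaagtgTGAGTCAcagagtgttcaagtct
Serpine2: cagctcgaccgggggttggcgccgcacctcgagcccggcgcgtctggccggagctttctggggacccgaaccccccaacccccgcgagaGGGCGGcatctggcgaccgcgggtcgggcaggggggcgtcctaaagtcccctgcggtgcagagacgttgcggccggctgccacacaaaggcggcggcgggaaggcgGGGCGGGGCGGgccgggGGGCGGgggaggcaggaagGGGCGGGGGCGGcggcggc
The AP-1 letters lie 94 bases before the start site in Serpinb2 and 23 bases before it in Serpinb8, and the TATA letters of Serpinb2 lie 29 bases before it. Among the 13 sequences, 4 held the AP-1 letters (Serpinb2, Serpinb8, Serpinb10 and Plaur), against 6.87% of 27025 mouse promoters of the same length. The GC box was in 5 of the 13 (32.9% of all promoters), the TATA box in 1 (13%) and the E box in none (6.05%). Genes with and without an AP-1 match are found on both sides of the test, since Plaur and Serpinb10 were not called and Serpinb9b has no match to any of the 4 motifs. A match of letters is a description of the sequence and shows no binding.

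The urokinase gene Plau rose with p21 while its receptor and the tissue-type activator did not pass the test. Plau (chr14:20836660-20843385, plus strand) stood at 271, 235 and 225 CPM in control, 369, 376 and 309.6 CPM in p21 and 296, 312 and 262 CPM in p16 libraries. Every p21 library lay above every control library, with means of 352 ± 36.7 against 244 ± 24.2 CPM (SD, n = 3). The gain was 1.44-fold (log2 fold change 0.53, standard error 0.0979, edgeR's quasi-likelihood adjusted p = 0.00234).

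Plaur (chr7:24462484-24475968, plus strand) stood at 215, 179 and 155 CPM in control and 189, 211 and 166 CPM in p21 libraries. The groups overlapped, and the log2 fold change was 0.04 with a 95% interval from -0.25 to 0.33. Plat (chr8:22757727-22782844, plus strand) varied widely within groups, at 44.3, 71.6 and 85.3 CPM in control, 46, 32.1 and 81.8 CPM in p21 and 59.5, 49.6 and 77.8 CPM in p16 libraries. Its highest library in every group was replicate 3, and its log2 fold change with p21 was -0.33 with an interval from -1.08 to 0.42.

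Of the 4 tested inhibitors of plasminogen activators and plasmin, 3 rose with p21, namely Serpine2, Serpini1 and Serpinb2, and 1 was not called. Over all genes tested, 19.3% were higher and 20.7% lower with p21. Serpine2 (chr1:79794197-79861180, minus strand), or protease nexin 1, a cell-bound inhibitor of thrombin and urokinase, stood at 44.3, 55.3 and 66.6 CPM in control, 91, 81.2 and 114 CPM in p21 and 66.4, 66.6 and 95.7 CPM in p16 libraries. All p21 libraries were above all control libraries, a gain of 1.72-fold (log2 0.78, standard error 0.188, edgeR's quasi-likelihood adjusted p = 0.00891). Serpini1 (chr3:75557547-75643495, plus strand), or neuroserpin, an inhibitor of tissue-type activator best known from neurons, was low but even within groups, at 0.965, 1.09 and 1 CPM in control, 1.8, 1.84 and 2.05 CPM in p21 and 1.88, 2.22 and 2.18 CPM in p16 libraries. It rose 1.86-fold with p21 (log2 0.90, standard error 0.147, edgeR's quasi-likelihood adjusted p = 0.00121), with no overlap between the groups.

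Serpinb2 (chr1:107511423-107535478, plus strand), an inhibitor of urokinase that stays largely inside the cell, stood at 11.1, 9.18 and 3.96 CPM in control, 20.3, 19.9 and 12.7 CPM in p21 and 15.1, 16.5 and 7.91 CPM in p16 libraries. Replicate 3 was the lowest library of each group, and p21 replicate 3 was still above every control library. The gain with p21 was 2.18-fold (log2 1.13, standard error 0.374, edgeR's quasi-likelihood adjusted p = 0.0375). The call was lost without some libraries. The adjusted p was 0.0698 without control replicate 2, 0.0683 without control replicate 3, 0.108 without p21 replicate 1 and 0.0966 without p21 replicate 2. Serpinb2 shares 10.4% of its 50-base words with Serpinb10, an overlapping gene on the same strand annotated as a polymorphic pseudogene, which stayed between 0.372 and 1.23 CPM and was not called. Serpinb2 is also expressed by activated macrophages. Of the 13 tested macrophage and leukocyte markers, 9 rose with p21, while Cd14 and Cd68 were not called. The summed level of that list in replicates 1, 2 and 3 was 26.7, 36 and 47.6 CPM in p21 libraries. It was 13.8, 15 and 16.7 CPM in control and 11.2, 14 and 15.8 CPM in p16 libraries. The part of such cells in the Serpinb2 level was not tested.

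**Figure D2:**
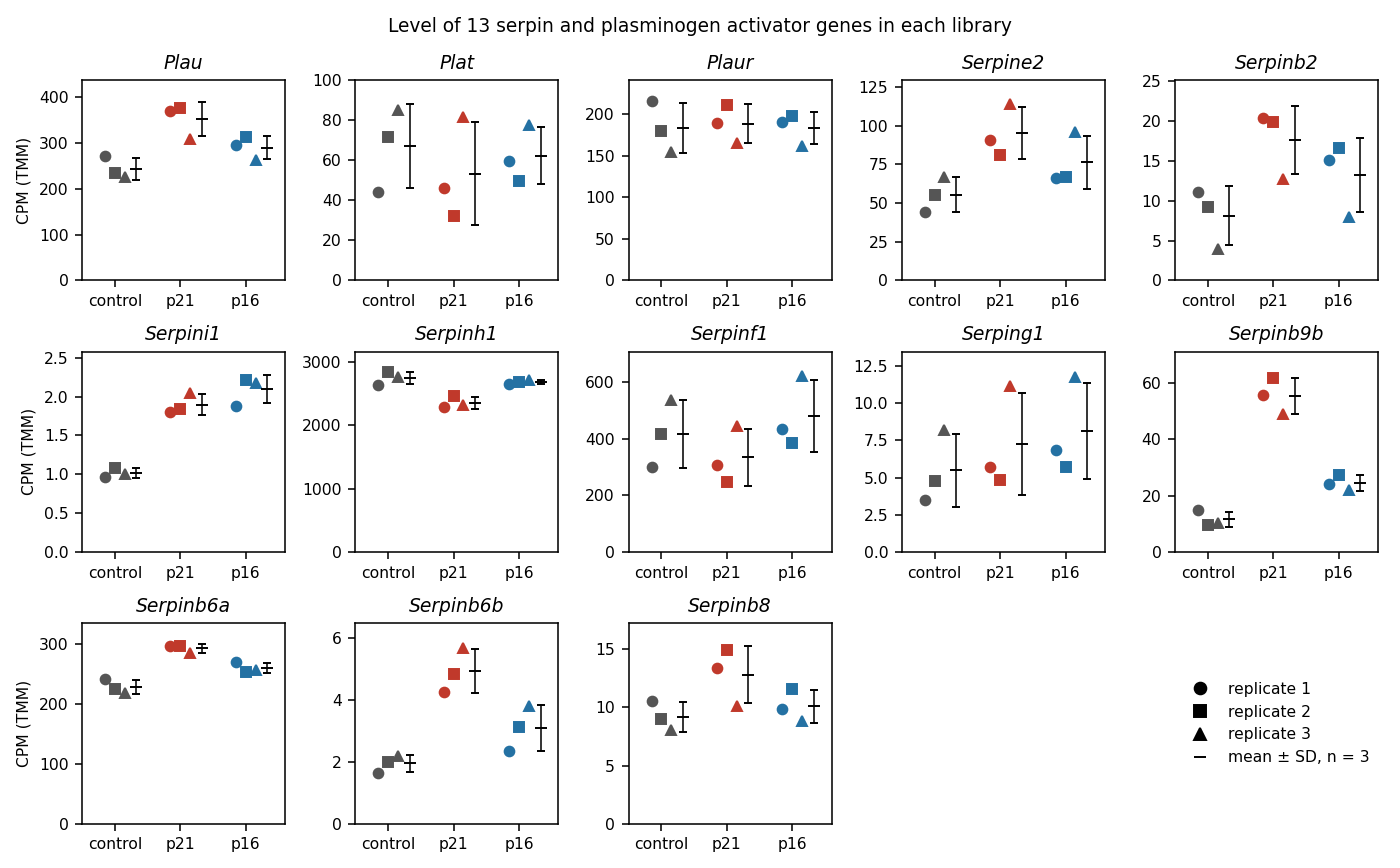
Level in CPM after TMM normalisation (linear axes from 0) of 13 members in each library, with marker shape for the replicate number and a bar for the mean ± SD of 3 libraries. Serpinb9b, Serpinb6a and Serpinb6b separate the 3 groups, while replicate 3 is the highest library of each group for Plat, Serpinf1 and Serping1 and the lowest for Serpinb2.

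Clade B held the largest change. Serpinb9b (chr13:33027416-33041884, plus strand), a relative of the granzyme B inhibitor Serpinb9, stood at 14.7, 9.67 and 10.4 CPM in control, 55.8, 61.8 and 49 CPM in p21 and 24.2, 27.3 and 21.8 CPM in p16 libraries. The 3 groups were fully separated, with p21 highest and p16 between. The gain with p21 was 4.78-fold (log2 2.26, standard error 0.159, edgeR's quasi-likelihood adjusted p = 1.5e-05), and it passed the test whichever library of the comparison was left out. Its neighbour Serpinb9 (chr13:33003250-33017957, plus strand) showed no such step, with 5.99, 7.47 and 9.72 CPM in control and 7.93, 7.92 and 10.3 CPM in p21 libraries (log2 0.17, 95% interval -0.24 to 0.59). Per kilobase of exon, Serpinb9b averaged 3.47 CPM per kb in control, 16.6 in p21 and 7.3 in p16 libraries, against 2.21 in control for Serpinb9.

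Both tested members of the Serpinb6 branch rose. Serpinb6a (chr13:33917918-34002794, minus strand), an inhibitor of cathepsin G and other serine proteases, stood at 241, 225 and 218 CPM in control, 296, 297 and 284 CPM in p21 and 269, 252 and 257 CPM in p16 libraries. The 3 groups did not overlap, and the gain with p21 was 1.28-fold (log2 0.36, standard error 0.0499, edgeR's quasi-likelihood adjusted p = 4.74e-04). Of its 50-base words, 25.1% also occur in other genes. Of these 1440 words, 715 occur in Nqo2, which was not called (log2 -0.10, adjusted p = 0.148), and the levels of the other sharing genes were not read. Serpinb6b (chr13:32965209-32979067, plus strand) was far lower, at 1.64, 1.99 and 2.19 CPM in control, 4.26, 4.83 and 5.67 CPM in p21 and 2.34, 3.12 and 3.81 CPM in p16 libraries. All p21 libraries were above all others, a gain of 2.53-fold over control (log2 1.34, standard error 0.197, edgeR's quasi-likelihood adjusted p = 6.58e-04).

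Serpinb8 (chr1:107590006-107610484, plus strand), an inhibitor of furin, stood at 10.5, 8.97 and 8.02 CPM in control, 13.4, 15 and 10.1 CPM in p21 and 9.88, 11.6 and 8.79 CPM in p16 libraries. Its p21 and control libraries overlapped, since p21 replicate 3 lay below control replicate 1. The 1.4-fold gain (log2 0.49, standard error 0.161, edgeR's quasi-likelihood adjusted p = 0.0369) was near the threshold. Its adjusted p was 0.0952 without control replicate 2, 0.103 without control replicate 3, 0.1 without p21 replicate 1, 0.127 without p21 replicate 2 and 0.0501 in a fit of these 2 groups alone. Serpinb1a, an inhibitor of neutrophil elastase, and Serpinb10 were not called and stayed at or below 3.51 CPM in every library.

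Serpinh1 (chr7:99345376-99353239, minus strand), or HSP47, the chaperone that holds the procollagen triple helix in the endoplasmic reticulum, was the only tested member to fall with p21. It stood at 2639, 2829 and 2758 CPM in control, 2278, 2455 and 2319 CPM in p21 and 2642, 2680.0 and 2711 CPM in p16 libraries. Every p21 library was below every control and every p16 library. The drop was 1.17-fold (log2 -0.22, standard error 0.0467, edgeR's quasi-likelihood adjusted p = 0.00456). With p21, 19.3% of all genes tested rose and 20.7% fell. Of the 23 tested genes of collagen folding and modification, 9 rose and none fell with p21, with a median log2 fold change of 0.19. Among them were Sparc (1.30-fold, adjusted p = 4.12e-04), which binds collagen, and the collagen chain Col5a2 (1.27-fold, adjusted p = 9.27e-04). Leprel4 (1.22-fold, adjusted p = 7.63e-04) and Lepre1 (1.2-fold, adjusted p = 0.00133), both of the prolyl 3-hydroxylase gene family, also rose, all in edgeR's quasi-likelihood test. The collagen list was chosen with earlier results known, and its count is set beside the Serpinh1 value only as a description.

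The other secreted serpins were not called with p21 in the fit without a replicate term, and they varied with the replicate number. Serpinf1 (chr11:75409769-75422701, minus strand), or PEDF, an inhibitor of vessel growth, stood at 299, 416 and 537 CPM in control, 309, 247 and 447 CPM in p21 and 434, 385 and 624 CPM in p16 libraries. Its log2 fold change with p21 was -0.32 with a 95% interval from -0.91 to 0.27. Serping1 (chr2:84765387-84775444, minus strand), the inhibitor of complement C1, stood at 3.48, 4.78 and 8.19 CPM in control, 5.73, 4.82 and 11.2 CPM in p21 and 6.85, 5.71 and 11.8 CPM in p16 libraries, with a log2 fold change of 0.40 and an interval from -0.51 to 1.30. Replicate 3 was the highest library in every group for both genes, and the groups overlapped. Of the clade A genes, Serpina3g, an inhibitor of cathepsins, averaged 7.24 ± 4.25 CPM in control and 4.24 ± 2.25 CPM in p21 libraries (log2 -0.78, adjusted p = 0.246). Serpina3h, annotated as a transcribed pseudogene, averaged 0.664 ± 0.374 and 1.32 ± 0.658 CPM (SD, n = 3; log2 0.99, adjusted p = 0.143, edgeR's quasi-likelihood test). With the replicate number as a block, 9 members were higher with p21 and 3 lower, beside 24% and 25.7% of all genes, and Serping1 (higher, adjusted p = 0.0309), Serpinf1 (lower, adjusted p = 0.0330) and Serpina3g (lower, adjusted p = 0.0225) passed edgeR's quasi-likelihood test.

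**Figure D3:**
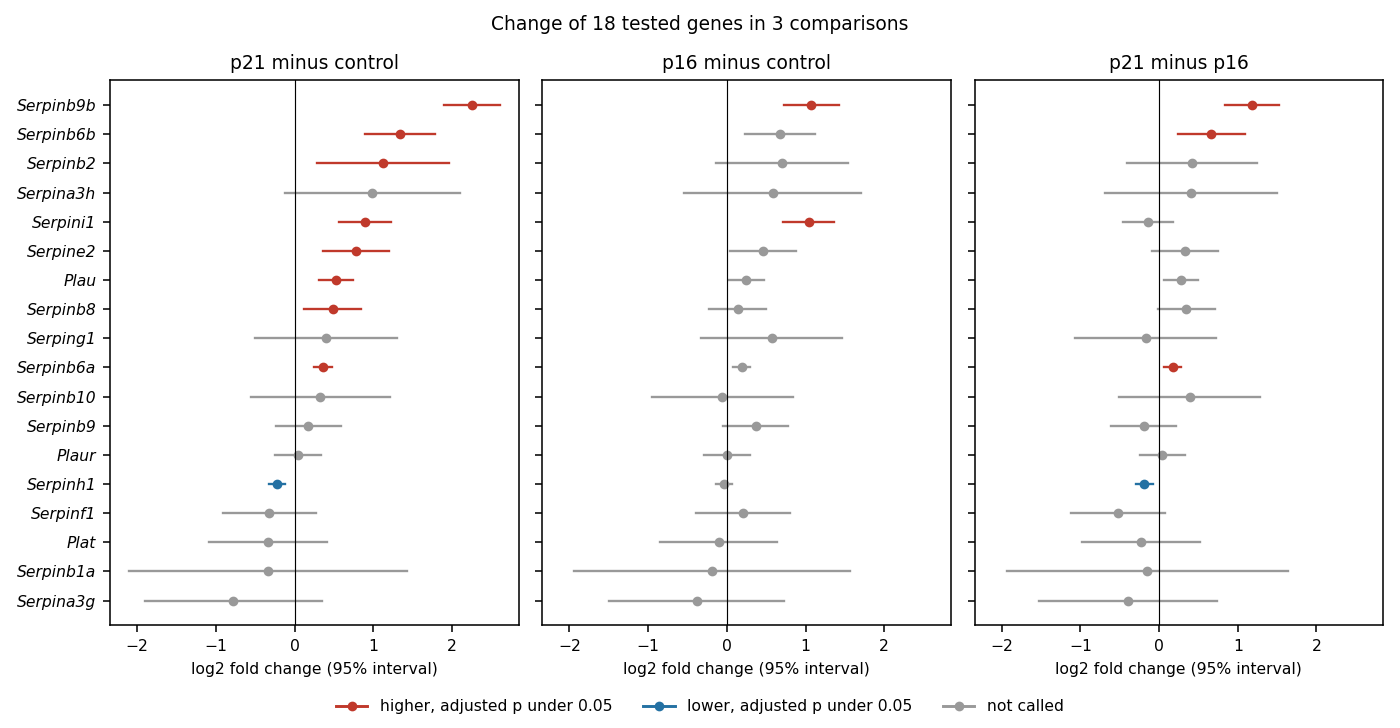
Log2 fold change with its 95% interval for 18 tested members in the 3 comparisons, red for higher, blue for lower and grey for not called at an adjusted p of 0.05. Serpinb9b is the highest in the p21 minus control panel at 2.26, and Serpinh1 is the only called member below 0 there.

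With p16, 2 of the 19 tested members rose against the empty vector and none fell, in a comparison where 3.57% of all 14572 genes were higher and 3.65% lower. At an unadjusted p under 0.05 in the same edgeR fit, 6 were higher and 0 lower, beside 11.7% and 12.9% of all genes. The comparison shares its control libraries with that of p21. Serpinb9b rose 2.10-fold, with means of 24.5 ± 2.75 CPM in p16 and 11.6 ± 2.73 CPM in control libraries (SD, n = 3; log2 1.07, edgeR's quasi-likelihood adjusted p = 0.00746). Among the marker lists, none of the 13 tested macrophage and leukocyte markers was called with p16, while Ivl (3.59-fold), Dsp (1.87-fold), Acta1 (1.77-fold) and Des (1.76-fold) rose and mesothelial Msln fell 2.47-fold. Their part in the rise of Serpinb9b was not tested. Serpini1 rose 2.06-fold, from 1.02 ± 0.0614 to 2.09 ± 0.181 CPM (SD, n = 3; log2 1.04, edgeR's quasi-likelihood adjusted p = 0.00703). For both genes every p16 library lay above every control library.

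Same-numbered p16 and control libraries deviated together from their group means over all genes, with correlations of 0.25, 0.11 and 0.55. However, p16 replicate 2 correlated more with control replicate 1, at 0.30, so the pairing of replicates 1 and 2 is unsettled. A fit with the replicate number as a block called 10 members higher and none lower. That fit called 8.59% of all genes tested higher and 8.38% lower. Those it added included Serpine2 (1.37-fold, adjusted p = 0.00335), Serpinb2 (1.67-fold, 0.00435), Serpinb6b (1.58-fold, 0.00563), Serpinb6a (1.14-fold, 0.0121), Plau (1.19-fold, 0.0128), Serping1 (1.49-fold, 0.0147) and Serpinb9 (1.30-fold, 0.0157), the second value being the adjusted p of edgeR's quasi-likelihood test. For Serpinb2, p16 exceeded control within each number, by 1.36-fold, 1.80-fold and 2-fold in replicates 1, 2 and 3. For Plau the same ratios were 1.09, 1.33 and 1.16. Serpinh1 stayed within an interval of -0.14 to 0.07 on the log2 scale around a change of -0.03 without the block and was not called with it. Plaur had the smallest change of the 19 without the block, with an interval from -0.29 to 0.29 on the log2 scale.

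The p21 and p16 groups were compared with each other, a contrast in which the control libraries cancel out. Here 3 members were higher in p21 and 1 was lower, against 6.19% and 6.64% of all genes tested. Serpinb9b was 2.27-fold higher in p21 (log2 1.18, edgeR's quasi-likelihood adjusted p = 0.00203), and within the numbered pairs the ratio was 2.31, 2.26 and 2.24. Serpinb6b was 1.59-fold higher (adjusted p = 0.0499) and Serpinb6a 1.13-fold higher (adjusted p = 0.0498), and Serpinh1 was 1.14-fold lower (adjusted p = 0.0298), all in the same edgeR fit. Serpini1, which rose against control in both groups, did not differ by the test between them (log2 -0.14, 95% interval -0.46 to 0.17).

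Of these 4 calls only that of Serpinb9b held when each p21 or p16 library was left out in turn. The adjusted p of Serpinb6a then ran from 0.0585, without p21 replicate 3, to 0.158, without p21 replicate 1. Serpinb6b passed only without p16 replicate 3, at 0.0397, and reached 0.148 without p16 replicate 1, with 0.0862, 0.114 and 0.122 without p21 replicates 1, 2 and 3 and 0.122 without p16 replicate 2. Serpinh1 passed only without p21 replicate 2, at 0.0346, and stood at 0.142 and 0.0722 without p21 replicates 1 and 3 and at 0.0774, 0.0829 and 0.106 without p16 replicates 1, 2 and 3. For Serpinb6a the values without p21 replicate 2 and p16 replicates 1, 2 and 3 were 0.137, 0.0856, 0.144 and 0.127. In the fit with the replicate number as a block the contrast called 9 members, 7 higher and 2 lower in p21, with 11.8% of all genes tested higher and 12.2% lower. The added genes were Plau (1.21-fold higher, adjusted p = 0.00511), Serpine2 (1.26-fold, 0.00927), Serpinb2 (1.37-fold, 0.0232) and Serpinb8 (1.26-fold, 0.0290), and Serpinf1, which was 1.45-fold lower in p21 (adjusted p = 0.00752, edgeR's quasi-likelihood test with the block).

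Much of the spread within groups followed the replicate number. On the log2(CPM + 0.5) scale, replicate 3 lay above the mean of replicates 1 and 2 in all 3 groups for 9 of the 19 tested members and below it in all 3 groups for 7. Over all genes tested, 27% were higher and 27.4% lower in this way. The genes higher in replicate 3 were Serpinb1a (by 1.71, 1.35 and 0.98 in control, p21 and p16), Serpina3g (1.21, 1.09 and 0.90), Serping1 (0.92, 1.02 and 0.86), Serpinf1 (0.61, 0.69 and 0.61), Plat (0.59, 1.08 and 0.51) as well as Serpina3h, Serpine2, Serpinb9 and Serpinb6b. The genes lower in replicate 3 included Serpinb2 (-1.25, -0.64 and -0.95), Plaur (-0.34, -0.27 and -0.27), Plau (-0.17, -0.27 and -0.21), Serpinb8, Serpinb9b and Serpinb6a. Serpinb10, Serpini1 and Serpinh1 had mixed signs. Plau, Plaur and Serpinb2 were thus lower, and Plat higher, in the libraries that carry Xist. Of these libraries, p21 replicate 3 also held the Y chromosome RNA Ddx3y, at 10.8 CPM, more than the others. The part of sex in this spread was not tested. In fits to replicates 1 and 2 of each group alone, 9 members were called for p21 against control, 3 for p16 against control and 5 for p21 against p16. The shares over all genes in these fits were 37.5%, 4.06% and 12.3%.

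**Figure D4:**
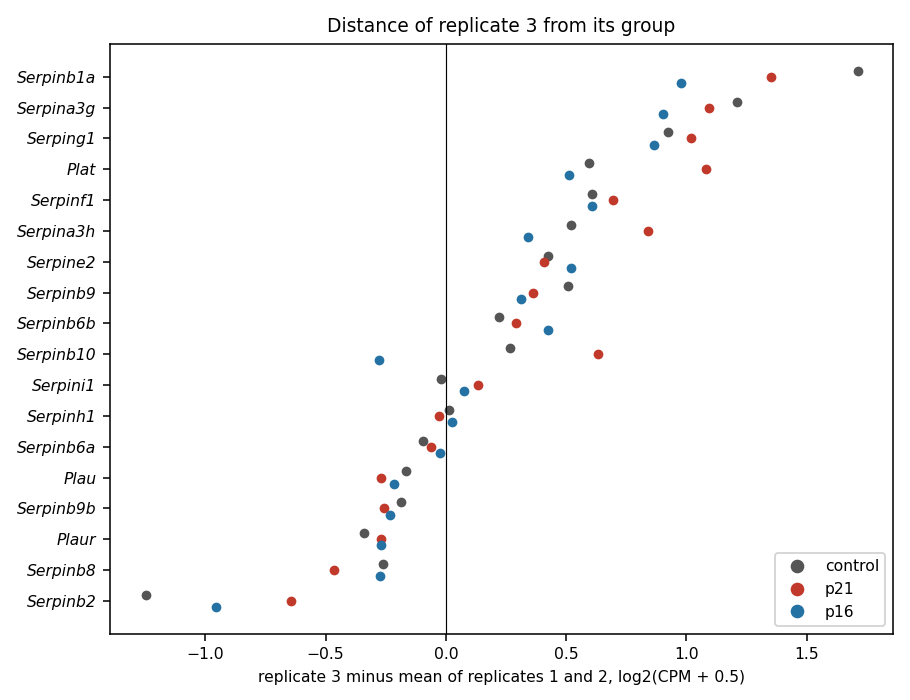
Difference of replicate 3 from the mean of replicates 1 and 2 on the log2(CPM + 0.5) scale for 18 tested members, 1 point per group. Serpinb1a has the largest positive values (1.71 in control) and Serpinb2 the most negative (-1.25 in control), with the 3 groups on the same side of 0 for 15 of 18 members.

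The partners of these genes were read from lists that were chosen with earlier results of these data known, so their counts describe and do not test the lists. For each list here and below, the shares over all genes tested were 19.3% higher and 20.7% lower with p21. With p16 these shares were 3.57% and 3.65%. Of 15 tested plasminogen receptors and clearance genes, 5 rose and 1 fell with p21 (median log2 0.11). They included Itgb1, an integrin subunit (1.63-fold, adjusted p = 3.1e-05), Lrpap1, a chaperone of endocytic receptors (1.41-fold, adjusted p = 3e-05), and S100a10, which binds plasminogen on the cell surface (1.18-fold, adjusted p = 0.0027), in edgeR's quasi-likelihood test. With p16, 4 of the 15 rose and none fell, among them Itgb1 (1.30-fold), Itgb3 (1.24-fold) and Thbs1 (1.2-fold), which encodes thrombospondin 1, a regulator of TGF-beta and plasmin.

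Of 12 tested genes of coagulation and the protein C system, 8 rose and none fell with p21 (median log2 0.69), and 2 rose with p16 (median 0.40). With p21 these included Procr, the protein C receptor (1.86-fold), F5, coagulation factor V (2.55-fold), F3, tissue factor (1.57-fold) and Thbd, thrombomodulin (1.5-fold). With p16 they were Thbd (1.37-fold) and Tfpi2, an inhibitor of plasmin and tissue factor complexes (1.84-fold). Of 10 tested proteases that serpins can inhibit, 7 rose and none fell with p21 (median 0.58). Those with the lowest p were Ctsl, cathepsin L (1.96-fold), Htra1, a secreted serine protease (1.76-fold), St14, the membrane protease matriptase (1.79-fold), and Ctsk, cathepsin K (1.32-fold). With p16, Ctsl and Htra1 rose, by 1.24-fold and 1.4-fold, and no other gene of that list was called. The leukocyte proteases Gzma, Gzmb, Elane, Ctsg and Prtn3 of that list were too low to test.

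Inhibitors outside the serpin family also rose, with 10 of 19 tested higher and 1 lower with p21 (median 0.47) and 2 higher and 1 lower with p16 (median 0.26). Timp2 and Timp1, inhibitors of matrix metalloproteases, rose 2.05-fold and 1.69-fold with p21 and 1.32-fold and 1.27-fold with p16. Itih2, of the inter-alpha-trypsin inhibitors, fell 1.29-fold with p16 (edgeR's quasi-likelihood adjusted p = 0.00611). None of 16 tested genes of TGF-beta signalling, p53 and related regulators was called with p16. With p21, 3 of the 16 rose and 2 fell (median 0.04), beside 19.3% higher and 20.7% lower among all genes tested. Smad7, an inhibitor of TGF-beta signalling, rose 1.39-fold, Tgfb2 1.46-fold and Tgfb3 1.29-fold, and Trp53, which encodes p53, fell 1.21-fold (adjusted p = 0.00592).

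**Figure D5:**
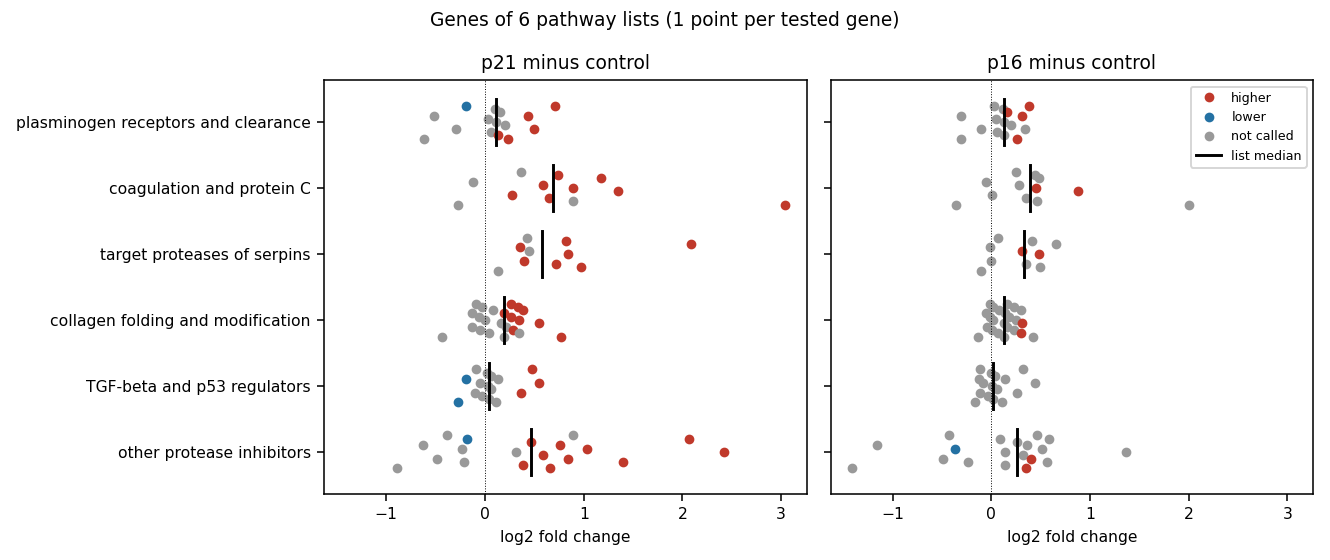
Log2 fold change of each tested gene of 6 pathway lists with p21 (left) and p16 (right) against control, red for higher, blue for lower and grey for not called at an adjusted p of 0.05, with a black bar at the list median. The medians for p21 run from 0.04 for the TGF-beta and p53 regulators to 0.69 for coagulation and protein C.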

How the data were processed

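RNA from 9 libraries of mouse embryonic fibroblasts was sequenced, and groups and replicate numbers were taken from the sample titles. The authors deposited a table of raw counts per gene symbol, whole numbers with no normalisation. The submitters' processing notes name the build mm10, the aligners Bowtie2 2.2.6 and TopHat2 2.0.14, and featureCounts 1.4.6 of Subread. How strand and reads with several positions were treated, and with which annotation, is not given in the sources used here. Library totals of 56.9 M to 76.1 M counts limit the precision mainly for members below 1 CPM. Whether the p16 libraries were prepared apart from the others is not given either, and such a batch and p16 cannot be told apart.

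Genes were kept with filterByExpr, which left 14572. The quasi-likelihood test of edgeR 4.0.16 in R 4.3.3 was fitted to all 9 libraries with TMM normalisation, 3 group means and no replicate term, with Benjamini-Hochberg adjustment over all genes tested and a threshold of 0.05. The fit was also run on simulated counts of independent libraries. These held no replicate effect, so that run does not cover the spread by replicate number described above. CPM are scaled to TMM-adjusted totals, and standard errors were taken as log2 fold change over the square root of F. Exon lengths and positions are those of GENCODE M21 (GRCm38), in which each of the 66 symbols matched 1 gene. Shared sequence was measured with words of 50 bases over all transcripts of that annotation.

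The members, roles and gene lists were chosen with earlier results of these data known. Full values are given for Plau, Plaur, Plat, Serpine2, Serpinb2, Serpinh1, Serpinf1 and Serping1 and for every other member called in at least 1 comparison with a group mean of at least 1 CPM. From each pathway list, up to 4 called genes with the lowest p are named. Other members are given by level or range. Some items are not reported here, although counts over the members include them. Libraries of a group differed beyond sampling noise (chi-square per degree of freedom 10.4 to 101), so none was merged.

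Replicate numbers are shared by the groups. Deviations from group means of same-numbered libraries correlated at 0.25, 0.11 and 0.55 for p16 and control. Between p21 and p16 they correlated at 0.16, 0.29 and 0.48. All of these are above the limit of 0.1, and the pairing of these numbers rests on this check alone. Libraries of different number also correlated, at 0.30 for p16 replicate 2 and 0.36 for p21 replicate 2, each with control replicate 1. The check thus sets replicate 3 apart but does not settle which of replicates 1 and 2 belong together with control. For p21 and control the values were 0.18, 0.03 and 0.49, which is not above that limit in every pair, so the check leaves the pairing of these groups unsettled, and both fits are given. Alternatives were DESeq2 size factors and library size alone in place of TMM, the test of DESeq2 1.42.0, no filter and a stricter filter, a replicate block, replicates 1 and 2 alone, the 2 groups of a comparison alone, and each library left out in turn. Of counts from 1 to 20 in the table, 67% are even, and the cause was not tested.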

Additional observations from a re-analysis of the deposited data

How the results depend on the processing

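For p21 against control, every alternative but the replicate block called 7 to 10 members, and Serpinb9b, Serpinb6a, Serpinb6b, Serpine2, Serpini1, Plau and Serpinh1 passed the test in each. Apart from the fit to 2 groups alone, these alternatives called 2123 to 3078 genes higher and 2101 to 3450 lower, of 12217 to 18951 tested. With the replicate block, 12 members were called, 9 higher and 3 lower, where 24% and 25.7% of all genes tested were called. The added members were Serping1 (higher, adjusted p = 0.0309), Serpinf1 (lower, adjusted p = 0.0330) and Serpina3g (lower, adjusted p = 0.0225, all in edgeR's quasi-likelihood test). For p16 against control, the DESeq2 test called 4 members, all higher, adding Serpinb6a and Serpinb6b. Of all 14572 genes, that test called 932 higher and 876 lower. The replicate block called 10 members, all higher, beside 8.59% of all genes higher and 8.38% lower. For p21 against p16, library size alone called 2 members, 1 of them higher, beside 847 of 14572 genes higher and 1040 lower. The replicate block called 9 members, 7 higher and 2 lower, beside 11.8% of all genes higher and 12.2% lower. Leaving out each library of the p21 and p16 groups gave 1 to 2 calls in that comparison, of which 1 to 2 were higher and 0 to 1 lower. Leaving out libraries gave 2 to 3 calls for p16 against control and 7 to 9 for p21 against control. Over all 14761 to 14812 genes tested in these fits, 284 to 839 were higher and 316 to 951 lower for p21 against p16. The ranges were 156 to 488 and 66 to 385 for p16 against control. For p21 against control they were 2123 to 2895 and 2101 to 2893. No called member changed direction under any of these alternatives. Fits with a library left out hold 2 libraries in that group, whose spread is pooled with the others, and members below 1 CPM carry too few reads for small changes to be detectable.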
